A study of Mus musculus with 8 samples.

Results

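In mouse embryonic fibroblasts, 116 autosomal genes were listed lower after loss of Taf4, stood higher again, mostly near control, in cells given full-length human TAF4, and stayed near or under the knockout level in cells given human TAF4 without its TAFH domain. The set was chosen on these very values. Levels are FPKM, the number of fragments per kilobase of a transcript relative to the size of the library, summed over the transcripts of a gene and taken as log2(FPKM + 1). On that scale a difference of 1 is a doubling of FPKM + 1, which in a gene of low level is more than a doubling of FPKM. A member had a knockout mean at least 1 below the control mean on that scale, both full-length clones at least 1 above the knockout mean, and both TAFH-deleted clones less than 0.5 above it. Of 12025 genes with at least 1 FPKM in 2 or more libraries and a longest transcript of at least 300 bases, 11640 were autosomal and 666 of those were lowered by that limit in knockout. With the other chromosomes, 5.75% of all tested genes lay that far below control, beside 116 of 116 members by choice. Full-length TAF4 met its limit in 199 of the 666, and 116 of the 199 also met the limit for the TAFH-deleted clones. Of the remaining 83, only 4 were raised by at least 1 in all 4 rescue clones. In the other 79 at least 1 TAFH-deleted clone was 0.5 or more above knockout, without both reaching 1. The TAFH-deleted clones were at least 1 apart in 43 of the 83, so these genes are not all intermediate. Because the rule used knockout against control and each rescue form against knockout, the sizes of those differences in the members are given as a description, without a test.

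RNA was sequenced from 8 libraries of C57BL/6 fibroblast lines, 2 in each of 4 groups. Control cells are Taf4 loxp/-, so they carry a single floxed copy beside a null allele, and a further label names the same cells wild type. Knockout cells are Taf4 -/-. The other groups are clones of Taf4 -/- cells with a stable human transgene, either hTAF4 wt (full-length, clones 1 and 2) or hTAF4 Δ (TAFH-deleted, clones 1 and 2). Each rescue library is thus a different clone, no age or treatment is given, and the promoter that drives the transgene and the parent line of each clone are not given in the sources used here. Differences between the rescue forms therefore carry the differences between clones, and the design gives 2 clones of each form.

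TAF4 is a subunit of TFIID, the general factor that recognises core promoters and helps to place RNA polymerase II at the start site. Its conserved TAFH domain, related to a domain of the ETO corepressors, is a docking surface for sequence-specific regulators, and the series title ties TAF4 to the E proteins, basic helix-loop-helix activators that bind E-box motifs. Fibroblasts are known as the main makers of collagens, proteoglycans and other matrix proteins, and as a source of growth factors and Wnt modulators for neighbouring cells.

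The steps between low FPKM values implied totals of 14.3 to 17.3 per library, in units of 1000000 fragments. Within control and within knockout the libraries differed by less than sampling noise (chi-square per gene 0.776 ± 0.0347 and 0.608 ± 0.0306, SE), so each pair was averaged and counted as 1 sample, and p-values measure only the spread between the rescue clones. The full-length clones were at least 1 apart on the log2(FPKM + 1) scale in 39 genes, and 923 genes were that far apart between the TAFH-deleted clones. Of 13 fibroblast markers, 11 reached 1 FPKM in at least 1 library, while no epithelial, endothelial or skeletal muscle marker did. The fibroblast list, which includes the member Pdgfra, summed to 937 to 939 FPKM in control and 863 to 866 in knockout. It summed to 909 to 932 with full-length TAF4 and 764 to 867 with the TAFH-deleted form. Taf4a was listed at 11.1 and 11.5 FPKM in control, 12.5 and 12.4 in knockout, 14.5 and 15.03 in full-length clones 1 and 2, and 14.7 and 19.2 in TAFH-deleted clones 1 and 2, so the deposited values do not separate knockout from control at the targeted gene. Which exons the deletion removes is not given in the sources used here, and whether human transgene reads contribute was not tested. Gapdh was listed at 0.0682 to 0.599 FPKM, so a low listed value need not mean a low transcript level. In bulk RNA, fewer cells with a transcript and less transcript per cell cannot be told apart.

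Across the 116 members the median level was 6.15 FPKM in control, 1.18 in knockout, 6.93 with full-length TAF4 and 0.630 with the TAFH-deleted form. Members were therefore modest in level, since the median control level of all 12025 genes was 20.02 FPKM. Relative to control, the knockout level had a median of 20.5%, the full-length level 111% and the TAFH-deleted level 12.2%. In knockout 56 members were under 1 FPKM, in the TAFH-deleted clones 68, and in control and the full-length clones none. The rule fixes the absence in control and the full-length clones. It puts them at least 1 above knockout on the log2(FPKM + 1) scale, which takes at least 1 FPKM. Of the 88 members with a single transcript, 12 had at most 3 fragments in both TAFH-deleted libraries and 3 members had so few in both knockout libraries. Differences between low values thus rest on a handful of fragments, and the added 1 FPKM shrinks them.

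**Figure D1:**
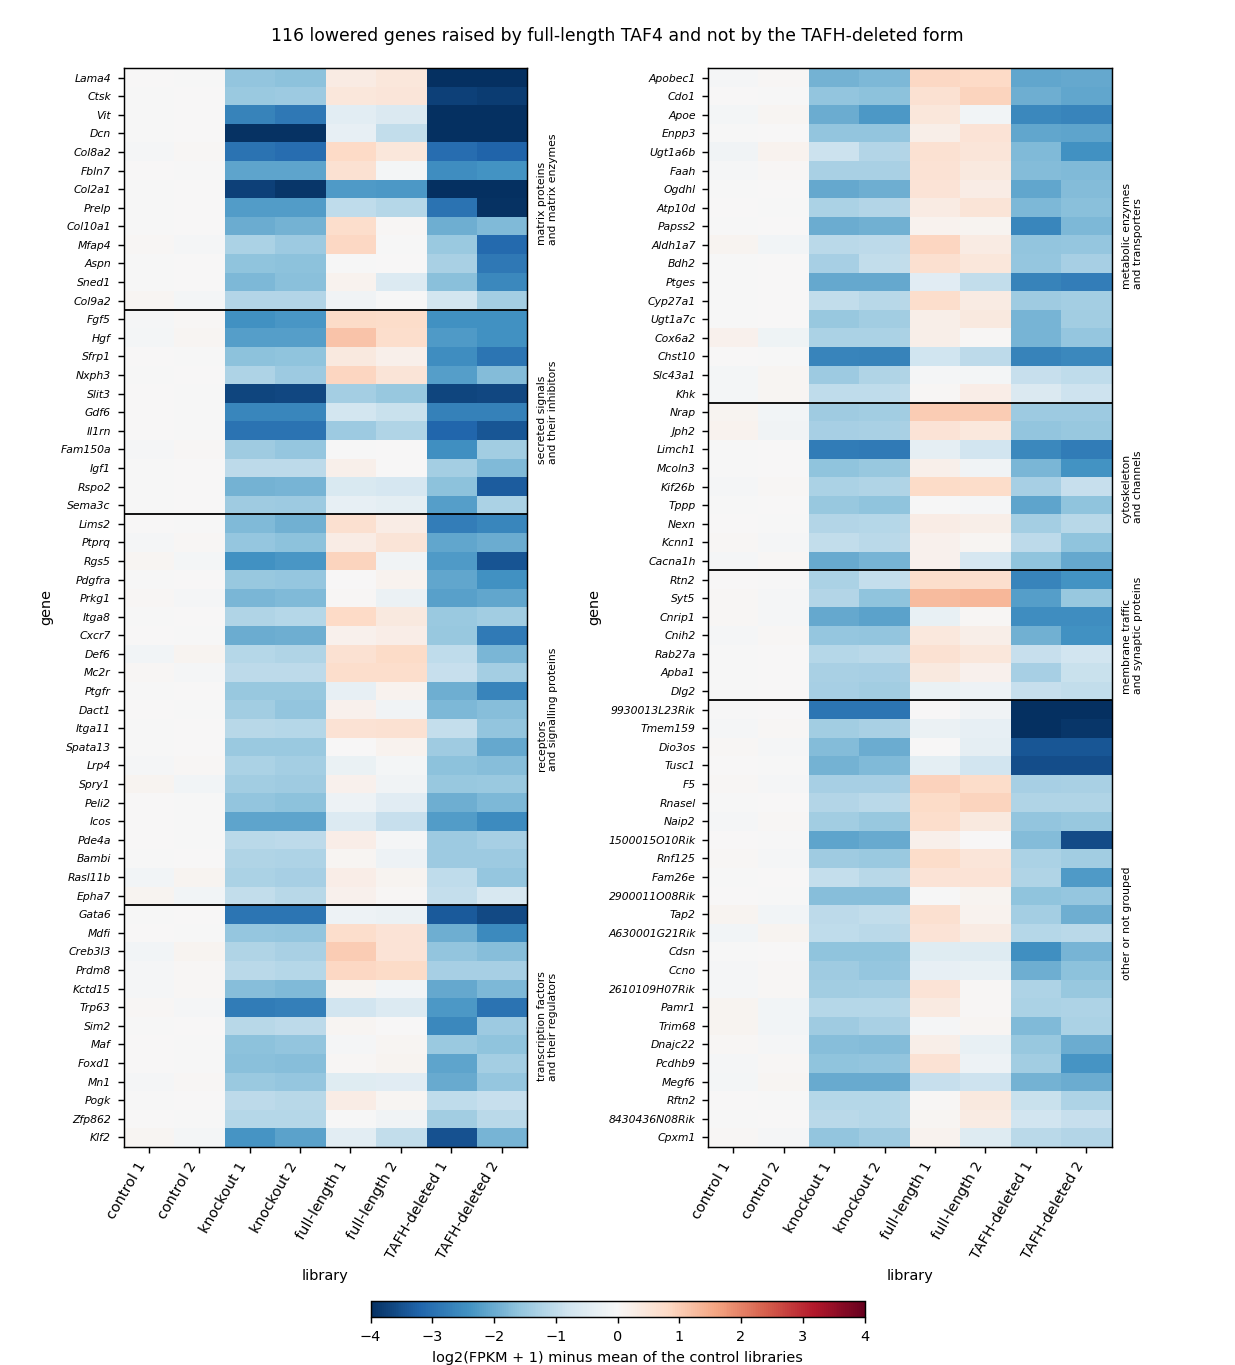
Each row is a member and each column a library, and the colour gives log2(FPKM + 1) minus the mean of the control libraries (values under -4 share the darkest blue). Rows are grouped by the role of the gene product and, within a group, ordered by the gap between the rescue forms. Knockout and TAFH-deleted columns are blue in every row, and full-length columns are pale blue to red except in rows such as Col2a1.

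The limits of the rule cut through a continuous range of values. With 0.1 in place of 1 as the added FPKM 184 genes met the rule, 100 of them among the 116, and after quantile normalization 71 did, 69 of them among the 116. At the limit on the knockout fall, Khk (fall of 1.00 on the log2 scale) and Tap2 (1.01) were inside, and B3gnt9-ps (0.997) and Cpa4 (0.981) outside. At the limit on the lower full-length clone, Cpxm1 (rise of 1.01) and Zfp862 (1.01) were inside, and Ugt1a6a (0.961) and Slc22a21 (0.958) outside. At the limit on the higher TAFH-deleted clone, Cxcr7 (rise of 0.458) and Trp63 (0.450) were inside, and Ecm2 (0.512) and Fbxo36 (0.520) outside. A further 7 genes on the X chromosome met every other limit and are not members, among them Agtr2, an angiotensin receptor, and Vsig1, a junctional adhesion protein.

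Matrix proteins and matrix enzymes formed a group of 13 members and held the widest gaps between the rescue forms. Leaving out Rik clones and predicted genes, the leading members of the whole set were Lama4 (mm9 chr10:38685321-38829994), Ctsk (mm9 chr3:95303208-95313284), Vit (mm9 chr17:78907403-79026749) and Dcn (mm9 chr10:96942134-96980796), all positions as deposited. Lama4, the alpha-4 chain of basement membrane laminins, was listed at 19.4 and 19.3 FPKM in control, 5.79 and 5.59 in knockout, 24.5 and 27.1 in full-length clones 1 and 2, and 0.180 and 0.179 in TAFH-deleted clones 1 and 2. Ctsk encodes cathepsin K, a protease that cuts collagen, and was at 18.4 and 19.2 FPKM in control, 6.08 and 6.24 in knockout, 26.4 and 26.6 in full-length clones 1 and 2, and 0.494 and 0.434 in TAFH-deleted clones 1 and 2. In both genes the full-length clones stood above both control libraries, and the TAFH-deleted clones stood far below knockout, so the 4 groups did not overlap.

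Vit, which encodes the matrix protein vitrin, was at 38.9 and 39.6 FPKM in control, 5.26 and 4.59 in knockout, 28.9 and 25.8 in full-length clones 1 and 2, and 0.544 and 0.277 in TAFH-deleted clones 1 and 2. Dcn, the small leucine-rich proteoglycan decorin, was at 23.98 and 24.4 FPKM in control, 0.642 and 0.642 in knockout, 19.1 and 11.6 in full-length clones 1 and 2, and 0 and 0.0387 in TAFH-deleted clones 1 and 2. These members differed from Lama4 and Ctsk in the rescue by full-length TAF4, which reached 69.6% of the control mean for Vit and 63.4% for Dcn. Col8a2, a chain of the short-chain collagen VIII, was at 10.2 and 10.7 FPKM in control, 0.474 and 0.393 in knockout, 18.9 and 14.9 in full-length clones 1 and 2, and 0.391 and 0.254 in TAFH-deleted clones 1 and 2, so that its full-length level was 161% of control while its TAFH-deleted clones lay next to knockout.

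Cartilage collagens were also members. Col2a1, the fibrillar collagen of cartilage, was at 48.2 and 48.9 FPKM in control, 2.69 and 2.33 in knockout, 9.26 and 9.04 in full-length clones 1 and 2, and 1.14 and 0.417 in TAFH-deleted clones 1 and 2. It met the rule although full-length TAF4 brought it to only 18.8% of the control mean, the lowest share in the set. Col10a1, the collagen of hypertrophic cartilage, was at 3.29 and 3.40 FPKM in control, 0.0923 and 0.162 in knockout, 6.07 and 3.52 in full-length clones 1 and 2, and 0.120 and 0.274 in TAFH-deleted clones 1 and 2. Col9a2, a collagen that coats type II fibrils, was at 2.01 and 1.71 FPKM in control, 0.266 and 0.266 in knockout, 1.57 and 1.84 in full-length clones 1 and 2, and 0.717 and 0.121 in TAFH-deleted clones 1 and 2. Both lay near or above the control level with full-length TAF4, and both were lowly expressed in every library.

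The other matrix members showed how far the TAFH-deleted clones could differ from each other. Aspn, the proteoglycan asporin, was at 77.1 and 78.3 FPKM in control, 24.7 and 24.03 in knockout, 77.5 and 78.4 in full-length clones 1 and 2, and 30.9 and 9.96 in TAFH-deleted clones 1 and 2, with TAFH-deleted clone 1 above knockout and clone 2 below it. Mfap4, a microfibril-associated glycoprotein, was at 12.8 and 11.96 FPKM in control, 4.54 and 3.87 in knockout, 22.9 and 12.2 in full-length clones 1 and 2, and 3.80 and 0.565 in TAFH-deleted clones 1 and 2, again with clone 2 the lower. Prelp, a basement membrane proteoglycan, was at 16.4 and 16.5 FPKM in control, 2.72 and 2.74 in knockout, 7.59 and 6.95 in full-length clones 1 and 2, and 1.24 and 0.127 in TAFH-deleted clones 1 and 2, and its full-length clones regained less than the control level. Fbln7, a fibulin, was at 12.6 and 12.5 FPKM in control, 2.15 and 2.15 in knockout, 19.7 and 11.8 in full-length clones 1 and 2, and 1.45 and 1.62 in TAFH-deleted clones 1 and 2, with little between knockout and the TAFH-deleted clones. Sned1, a matrix glycoprotein, completes the group at a control level of 9.16 and 9.41 FPKM. Over the 13 genes the median full-length level was 100% of control, and in 9 both TAFH-deleted clones lay below the knockout mean. Both clones lay below it in 59.5% of all members and 25.7% of all tested genes.

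**Figure D2:**
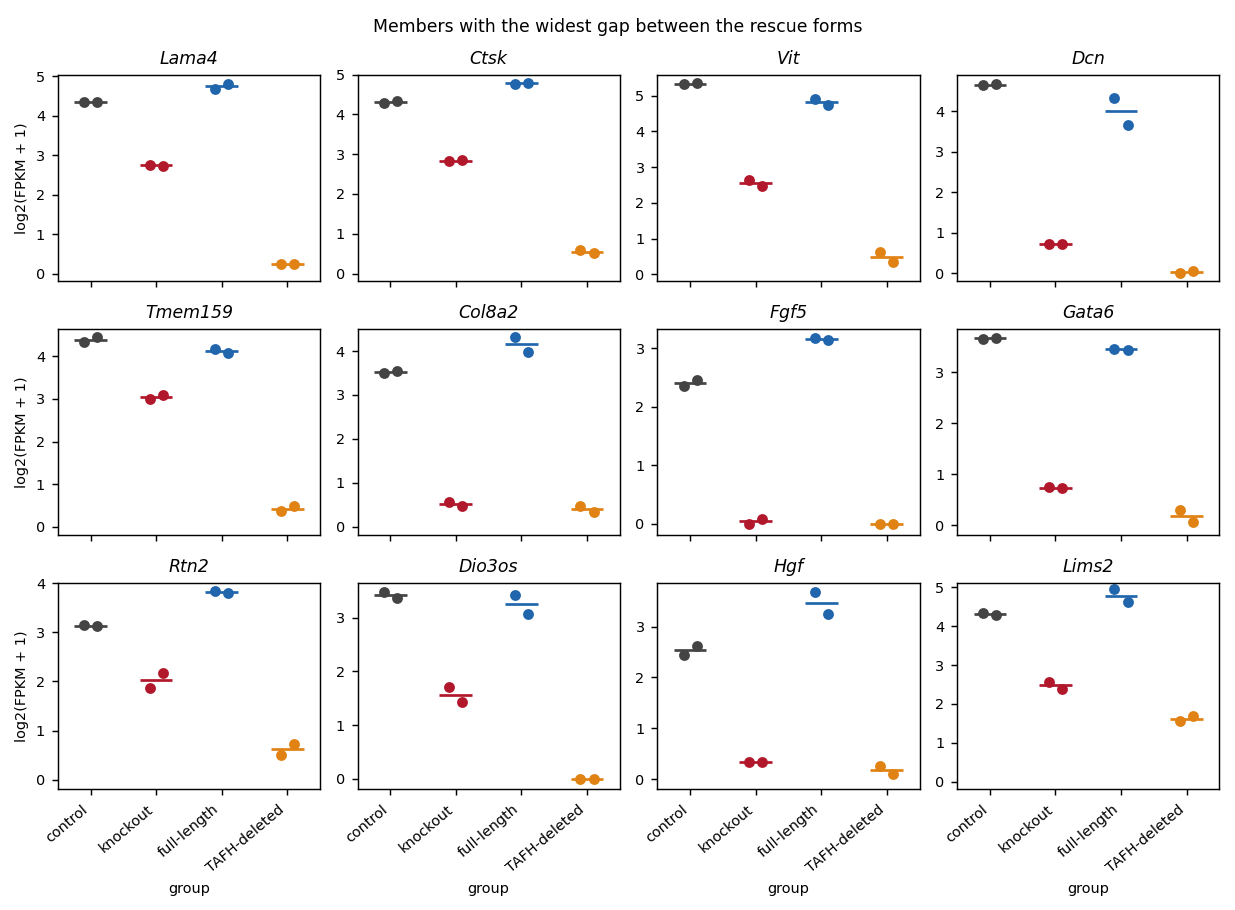
Points are single libraries and bars group means of log2(FPKM + 1) for the 12 members, Rik clones and predicted genes left out, with the widest gap between the lower full-length and the higher TAFH-deleted clone. In each panel the full-length clones stand above knockout, and in Lama4, Ctsk, Vit, Tmem159, Rtn2 and Dio3os the TAFH-deleted clones stand at least 1 below knockout.

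Secreted signals and their inhibitors numbered 11. Fgf5, a fibroblast growth factor (mm9 chr5:98683203-98706049), was at 4.14 and 4.50 FPKM in control, 0 and 0.0588 in knockout, 8.06 and 7.83 in full-length clones 1 and 2, and 0 and 0 in TAFH-deleted clones 1 and 2. It was thus listed at 0 in both TAFH-deleted libraries and in knockout library 1. Hgf, the ligand of the Met receptor (mm9 chr5:16059368-16125257), was at 4.45 and 5.12 FPKM in control, 0.265 and 0.265 in knockout, 11.9 and 8.46 in full-length clones 1 and 2, and 0.192 and 0.0724 in TAFH-deleted clones 1 and 2. Its full-length clones stood above both control libraries, at 212% of the control mean, and its TAFH-deleted clones stood below knockout.

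Wnt modulators were divided in how far full-length TAF4 brought them back. Sfrp1, a secreted Wnt antagonist, was at 50.4 and 50.2 FPKM in control, 15.6 and 15.9 in knockout, 65.99 and 58.4 in full-length clones 1 and 2, and 8.11 and 5.73 in TAFH-deleted clones 1 and 2. Rspo2, an R-spondin that strengthens Wnt signalling, was at 67.5 and 67.6 FPKM in control, 17.5 and 18.001 in knockout, 43.5 and 42.1 in full-length clones 1 and 2, and 21.1 and 5.87 in TAFH-deleted clones 1 and 2. Sfrp1 stood above control in both full-length clones and below knockout in both TAFH-deleted clones, while Rspo2 stayed under control in the full-length clones and its TAFH-deleted clones lay on either side of knockout.

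Slit3, a ligand of Robo receptors, was at 12.03 and 11.8 FPKM in control, 0.0141 and 0.0423 in knockout, 3.97 and 3.55 in full-length clones 1 and 2, and 0.0146 and 0.0386 in TAFH-deleted clones 1 and 2. Il1rn, the interleukin-1 receptor antagonist, was at 33.05 and 32.3 FPKM in control, 3.35 and 3.36 in knockout, 11.4 and 13.5 in full-length clones 1 and 2, and 2.76 and 2.15 in TAFH-deleted clones 1 and 2. Gdf6, a bone morphogenetic protein family ligand, was at 5.71 and 5.44 FPKM in control, 0.0812 and 0.0812 in knockout, 2.97 and 2.52 in full-length clones 1 and 2, and 0 and 0.0185 in TAFH-deleted clones 1 and 2. These were the signals that full-length TAF4 left furthest below control, at 31.6% of the control mean for Slit3 and 38.1% for Il1rn. Sema3c, a semaphorin, was at 37.04 and 37.96 FPKM in control, 13.4 and 13.2 in knockout, 29.5 and 28.5 in full-length clones 1 and 2, and 7.32 and 15.2 in TAFH-deleted clones 1 and 2. Igf1, the insulin-like growth factor, was at 5.19 and 5.41 FPKM in control, 2.03 and 2.02 in knockout, 6.29 and 5.35 in full-length clones 1 and 2, and 1.44 and 0.858 in TAFH-deleted clones 1 and 2. Both lay close to control with full-length TAF4, Sema3c a little under it and Igf1 within its range or above. Nxph3, a neurexophilin, and Fam150a, a ligand of the Alk and Ltk receptors, had control levels of 4.57 and 4.74 and 17.2 and 18.6 FPKM and full-length levels of 9.27 and 7.01 and 17.8 and 17.996 FPKM.

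Receptors and intracellular signalling proteins were the largest named group, with 21 members. Pdgfra, the receptor of platelet-derived growth factor A and a fibroblast marker, was at 51.3 and 52.2 FPKM in control, 17.4 and 17.3 in knockout, 52.9 and 56.7 in full-length clones 1 and 2, and 11.5 and 8.81 in TAFH-deleted clones 1 and 2. Itga11, a collagen-binding integrin chain, was at 34.1 and 34.2 FPKM in control, 15.4 and 15.02 in knockout, 52.1 and 53.1 in full-length clones 1 and 2, and 17.1 and 10.9 in TAFH-deleted clones 1 and 2. Itga8, an integrin chain that binds nephronectin, was at 1.77 and 1.85 FPKM in control, 0.218 and 0.278 in knockout, 3.92 and 2.69 in full-length clones 1 and 2, and 0 and 0.0663 in TAFH-deleted clones 1 and 2. Both integrin genes were above control in both full-length clones, but only Itga8 was below knockout in both TAFH-deleted clones. Lims2, an adaptor of integrin adhesions also called PINCH2, was at 19.2 and 18.6 FPKM in control, 4.91 and 4.23 in knockout, 30.03 and 23.6 in full-length clones 1 and 2, and 1.94 and 2.24 in TAFH-deleted clones 1 and 2, with groups in the same order as for Lama4.

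Cxcr7, a scavenging chemokine receptor, was at 20.3 and 20.1 FPKM in control, 4.41 and 4.46 in knockout, 23.2 and 24.5 in full-length clones 1 and 2, and 6.46 and 2.02 in TAFH-deleted clones 1 and 2. Ptgfr, the prostaglandin F receptor, was at 12.5 and 12.96 FPKM in control, 3.82 and 3.75 in knockout, 9.82 and 13.99 in full-length clones 1 and 2, and 2.53 and 1.20 in TAFH-deleted clones 1 and 2. In Cxcr7 TAFH-deleted clone 1 lay above knockout and clone 2 below it, whereas both clones lay below knockout in Ptgfr. Bambi, a decoy receptor of the TGF-beta family, was at 1.91 and 2.01 FPKM in control, 0.279 and 0.251 in knockout, 2.11 and 1.59 in full-length clones 1 and 2, and 0.0870 and 0.0892 in TAFH-deleted clones 1 and 2. Epha7, an ephrin receptor, was at 3.43 and 2.77 FPKM in control, 1.07 and 0.910 in knockout, 3.57 and 3.26 in full-length clones 1 and 2, and 1.11 and 1.59 in TAFH-deleted clones 1 and 2. With full-length TAF4 the means were 94.5% of control for Bambi and 110.2% for Epha7, and the TAFH-deleted clones of Epha7 lay slightly above knockout. Rgs5, a regulator of G protein signalling, was at 19.6 and 17.8 FPKM in control, 2.69 and 2.90 in knockout, 35.1 and 16.99 in full-length clones 1 and 2, and 3.06 and 0.806 in TAFH-deleted clones 1 and 2, and its full-length clones were the only pair of the set that stood at least 1 apart on the log2(FPKM + 1) scale. All 21 receptor and signalling genes were less than 1 from control on the log2(FPKM + 1) scale with full-length TAF4, as were 95.2% of all tested genes. In FPKM only Mc2r was past 2-fold, at 203% of the control mean. In 13 of the 21 both TAFH-deleted clones lay below the knockout mean, beside 59.5% of all members and 25.7% of all tested genes.

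Transcription factors and their regulators numbered 13, at a median control level of 10.3 FPKM. Gata6, a zinc finger factor of mesoderm and endoderm, was at 11.5 and 11.8 FPKM in control, 0.678 and 0.655 in knockout, 9.95 and 9.83 in full-length clones 1 and 2, and 0.234 and 0.0412 in TAFH-deleted clones 1 and 2. It was the transcription factor with the widest gap between the forms, and its full-length clones nearly coincided. Sim2, a basic helix-loop-helix factor of the PAS family, was at 6.84 and 7.09 FPKM in control, 2.67 and 2.88 in knockout, 7.37 and 7.03 in full-length clones 1 and 2, and 0.344 and 1.92 in TAFH-deleted clones 1 and 2. Mdfi, an inhibitor of myogenic basic helix-loop-helix factors, was at 6.39 and 6.21 FPKM in control, 1.49 and 1.43 in knockout, 10.99 and 9.70 in full-length clones 1 and 2, and 0.865 and 0.240 in TAFH-deleted clones 1 and 2. For both the TAFH-deleted clones lay below knockout. Trp63, the p53 relative p63, was at 7.86 and 7.46 FPKM in control, 0.242 and 0.314 in knockout, 4.12 and 4.91 in full-length clones 1 and 2, and 0.744 and 0.122 in TAFH-deleted clones 1 and 2, summed over 8 transcripts. Klf2, a Krüppel-like factor, was at 18.2 and 16.5 FPKM in control, 2.60 and 3.14 in knockout, 12.5 and 8.29 in full-length clones 1 and 2, and 0.652 and 4.09 in TAFH-deleted clones 1 and 2. TAFH-deleted clone 1 was the higher of its pair in Trp63 and the lower in Klf2. Maf, Foxd1, Prdm8, Creb3l3, Kctd15, Mn1, Pogk and Zfp862 were the other members. All 13 were less than 1 from control on the log2(FPKM + 1) scale with full-length TAF4, as were 95.2% of all tested genes. In FPKM, Prdm8 (223% of the control mean) and Creb3l3 (206%) were past 2-fold.

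None of 9 tested genes for E proteins, Id inhibitors and ETO corepressors was a member, and none of 16 tested TFIID subunits. Members were only 116 of the 12025 tested genes, so their absence from lists this small is close to that share. The E protein gene Tcf3 was at 59.6 and 60.7 FPKM in control, 52.9 and 52.4 in knockout, 59.8 and 57.3 in full-length clones 1 and 2, and 61.3 and 57.2 in TAFH-deleted clones 1 and 2. Its relative Tcf4 was at 44.9 and 45.3 FPKM in control, 34.5 and 34.7 in knockout, 38.3 and 37.9 in full-length clones 1 and 2, and 40.3 and 37.5 in TAFH-deleted clones 1 and 2. The remaining E protein gene, Tcf12, was at 45.1 and 45.01 FPKM in control, 50.8 and 52.3 in knockout, 42.04 and 43.3 in full-length clones 1 and 2, and 59.5 and 50.4 in TAFH-deleted clones 1 and 2. Their differences between the TAFH-deleted and full-length clones were 0.02 ± 0.08, 0.03 ± 0.08 and 0.35 ± 0.11 on the log2 scale (SE), with adjusted p = 0.905, 0.840 and 0.130 by limma. The Id genes encode inhibitors of E proteins, and limma called none of Id1, Id2, Id3 and Id4, with adjusted p from 0.110 (Id1, 0.50 ± 0.13 higher in the TAFH-deleted clones) to 0.909 (Id4). Id4 differed most between the TAFH-deleted clones, at 0.385 and 6.47 FPKM.

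Metabolic enzymes and transporters made up 18 members. All 18 were less than 1 from control on the log2(FPKM + 1) scale with full-length TAF4, as were 95.2% of all tested genes. In FPKM, Chst10 alone was past 2-fold, at 45.1% of the control mean. Apobec1, the cytidine deaminase that edits apolipoprotein B RNA, was at 4.67 and 4.93 FPKM in control, 0.573 and 0.674 in knockout, 9.27 and 9.18 in full-length clones 1 and 2, and 0.385 and 0.399 in TAFH-deleted clones 1 and 2. Apoe, the lipid carrier apolipoprotein E, was at 19.4 and 21.6 FPKM in control, 4.39 and 3.35 in knockout, 28.1 and 18.9 in full-length clones 1 and 2, and 2.61 and 2.41 in TAFH-deleted clones 1 and 2. Cdo1, cysteine dioxygenase, was at 15.8 and 15.7 FPKM in control, 4.58 and 4.38 in knockout, 24.8 and 30.1 in full-length clones 1 and 2, and 3.33 and 2.93 in TAFH-deleted clones 1 and 2. The full-length clones of Apobec1 and Cdo1 stood above control and their TAFH-deleted clones below knockout, and Apoe had the same order except that full-length clone 2 lay just under control. Ptges, a prostaglandin E synthase, was at 6.82 and 6.95 FPKM in control, 0.922 and 0.902 in knockout, 4.80 and 3.02 in full-length clones 1 and 2, and 0.224 and 0.161 in TAFH-deleted clones 1 and 2. Chst10, a sulfotransferase, was at 6.04 and 5.81 FPKM in control, 0.116 and 0.0927 in knockout, 2.99 and 2.35 in full-length clones 1 and 2, and 0.0962 and 0.148 in TAFH-deleted clones 1 and 2. Those were the metabolic members with the full-length clones furthest below control. Ugt1a6b and Ugt1a7c, glucuronosyltransferases of the Ugt1a locus, share exons and coordinates, so reads cannot be told apart with certainty, and Aldh1a7, Naip2 and Pcdhb9 have close paralogs that could share reads.

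Cytoskeletal, contractile and channel genes (9) and membrane traffic and synaptic genes (7) included members that are known mainly from muscle and nerve. Nrap, an anchoring protein of striated muscle, was at 1.99 and 1.56 FPKM in control, 0.0260 and 0.0521 in knockout, 4.65 and 4.59 in full-length clones 1 and 2, and 0 and 0 in TAFH-deleted clones 1 and 2. Syt5, a synaptotagmin, was at 4.12 and 3.89 FPKM in control, 1.22 and 0.655 in knockout, 11.1 and 11.6 in full-length clones 1 and 2, and 0.0907 and 0.757 in TAFH-deleted clones 1 and 2. Rtn2, a reticulon of the endoplasmic reticulum, was at 7.82 and 7.72 FPKM in control, 2.65 and 3.53 in knockout, 13.4 and 13.02 in full-length clones 1 and 2, and 0.416 and 0.658 in TAFH-deleted clones 1 and 2. Nrap and Syt5 were the only members more than 1 above control on the log2(FPKM + 1) scale with full-length TAF4, and Nrap was listed at 0 in both TAFH-deleted libraries. Limch1, which binds myosin, was at 24.9 and 25.5 FPKM in control, 2.80 and 2.68 in knockout, 19.4 and 14.6 in full-length clones 1 and 2, and 3.41 and 2.74 in TAFH-deleted clones 1 and 2. Nexn, an actin-binding protein, was at 26.8 and 25.9 FPKM in control, 11.04 and 11.3 in knockout, 32.5 and 31.4 in full-length clones 1 and 2, and 9.71 and 11.6 in TAFH-deleted clones 1 and 2. In both the TAFH-deleted clones stayed near knockout.

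The neural marker list, with 1 of 7 markers in the table reaching 1 FPKM (Tubb3) and Nefl, Snap25 and Sox10 at 0, summed to 13.9 to 15.002 FPKM in control, 7.94 to 8.61 in knockout, 10.6 to 11.1 with full-length TAF4 and 2.67 to 3.07 with the TAFH-deleted form. The macrophage and leukocyte list summed to 14.7 to 15.95, 13.6 to 14.9, 16.6 to 23.2 and 7.71 to 8.74 FPKM in the same order, with 4 of 7 markers reaching 1 FPKM and none at 0 throughout. The pluripotent list, with 1 of 6 markers reaching 1 FPKM and Lin28a and Zfp42 at 0, summed to 11.8 to 12.5, 5.44 to 5.49, 7.42 to 8.91 and 6.31 to 21.01 FPKM. The neural and macrophage lists stood lowest in the TAFH-deleted clones, and the part of these lists in the members' values was not tested.

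The remaining 24 members had mixed or less well known products. Tmem159, a lipid droplet protein (mm9 chr7:127245940-127264500), was at 19.2 and 20.8 FPKM in control, 6.94 and 7.50 in knockout, 16.9 and 15.9 in full-length clones 1 and 2, and 0.290 and 0.408 in TAFH-deleted clones 1 and 2. Dio3os, a transcript antisense to the deiodinase gene Dio3, was at 10.2 and 9.35 FPKM in control, 2.26 and 1.70 in knockout, 9.81 and 7.43 in full-length clones 1 and 2, and 0 and 0 in TAFH-deleted clones 1 and 2, without strand information in the sources used here. Tusc1 was at 10.7 and 10.7 FPKM in control, 2.15 and 2.45 in knockout, 8.03 and 5.96 in full-length clones 1 and 2, and 0 and 0 in TAFH-deleted clones 1 and 2. Tmem159 had the lowest TAFH-deleted mean relative to knockout on the log2(FPKM + 1) scale, and Dio3os and Tusc1 were listed at 0 in both TAFH-deleted libraries, as were Cnrip1, Fgf5 and Nrap. Cdsn, the adhesion protein corneodesmosin, was at 85.3 and 85.3 FPKM in control, 27.1 and 27.05 in knockout, 60.4 and 59.8 in full-length clones 1 and 2, and 14.8 and 22.9 in TAFH-deleted clones 1 and 2. It had the highest control level of the set. In its fullest library the implied number of fragments was 73.8% of the number of possible start positions on both strands. That share was over 20% in 25 members and over 50% in 5 members in a library. Which positions held reads was not measured, and whether reads that share a position were dropped was not tested.

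The rule did not fix how far full-length TAF4 brought the members back to control. Full-length levels were less than 1 from control on the log2(FPKM + 1) scale in 110 of 116 members (94.8%), against a background of 95.2% of all tested genes. Only 48.4% of the 550 other lowered genes were as near, and all but 83 of these had missed the limit on the full-length rise. Of those 83, 92.8% were as near. In FPKM, 100 of the 116 had a full-length mean within 2-fold of the control mean, 9 were at least 2-fold above it and 7 at least 2-fold below. On the log2(FPKM + 1) scale the share in the members was thus close to the background. Since the rule asked for a rise of at least 1, much of it comes from the choice, as does the contrast with the other lowered genes. The 6 exceptions were Syt5 and Nrap above control, at 1.30 and 1.02 on the log2 scale, and Col2a1, Slit3, Il1rn and Prelp below it, at -2.29, -1.44, -1.33 and -1.08. Genes at least 1 above control on that scale were 0.183% and genes at least 1 below it 4.62% of all tested.

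**Figure D3:**
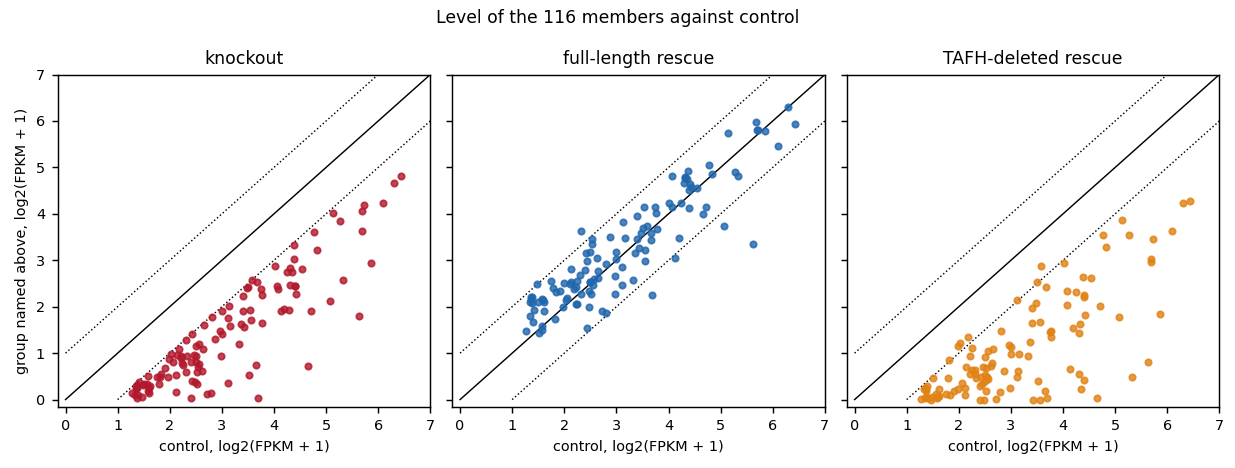
Each point is a member, with the control mean on the x axis and the mean of knockout, full-length or TAFH-deleted libraries on the y axis, all as log2(FPKM + 1). The solid line marks equality and dotted lines a difference of 1. All knockout points lie at or under the lower dotted line by choice. Between the dotted lines lie 110 of 116 full-length points, for which the choice limits most members on the lower side.

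The median difference of full-length rescue and control was 0.13 over the members and -0.04 over all tested genes on the log2 scale, and members ranged from -2.29 to 1.30. Both full-length clones stood above both control libraries in 54 members (46.6%, background 34.6%) and below both in 26 (22.4%, background 47.2%). The rule asked for a rise in both full-length clones, which raises the median and the first share and lowers the second. Nothing is therefore read from these contrasts with the background. By limma no gene of all tested differed between full-length rescue and control at an adjusted p of 0.05 (percent called 0). An unadjusted p under 0.05 was found in 19 members (16.4%, background 11.1%), which were chosen partly on their full-length values. The smallest adjusted p among members was 0.156, for Slit3 (-1.44 ± 0.20, SE). Fitted with only the full-length clones and control, limma called 32 members, 20 above and 12 below control (2092 genes lower and 766 higher in all). Without TAFH-deleted clone 1 it called 2194 genes lower and 759 higher, and 2157 and 787 when TAFH-deleted clone 2 was left out.

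The rule capped the TAFH-deleted clones above knockout and set no limit below it. In 69 members (59.5%) both clones lay below the knockout mean, against a background of 25.7% of all tested genes and 18.9% of the other lowered genes. In 14 members (12.1%, background 34.7%) both lay above it. The cap removes genes that lie well above knockout, so part of this excess comes from the choice. It also lowers the share in the other lowered genes, since the 83 raised by full-length TAF4 each had a TAFH-deleted clone over the cap. The median difference of the TAFH-deleted clones and knockout was -0.27 in the members on the log2 scale and 0.03 over all tested genes. In 8 members (6.90%, background 1.43%) both clones were at least 1 below, namely Tmem159, Lama4, Ctsk, Vit, Tusc1, Dio3os, Rtn2 and 9930013L23Rik. The fitted differences were -2.61 ± 0.21 for Tmem159, -2.50 ± 0.21 for Lama4 and -2.29 ± 0.20 for Ctsk (SE), each with adjusted p = 0.416 by limma. No gene passed in this comparison (percent called 0). At an unadjusted p under 0.05 there were 790 genes (6.57%), 13 of them members. The cap leaves little room for a member to be called higher in the fits that follow. A fit of all 8 libraries counts the control and knockout pairs as replicates, although each pair differed by less than sampling noise. In that fit limma called 577 of 12025 genes lower and 497 higher, and among the members 14 lower and 0 higher. Without TAFH-deleted clone 1 it called 1874 lower and 2137 higher (26 and 0 members), and 338 and 119 (14 and 0 members) when clone 2 was left out.

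**Figure D4:**
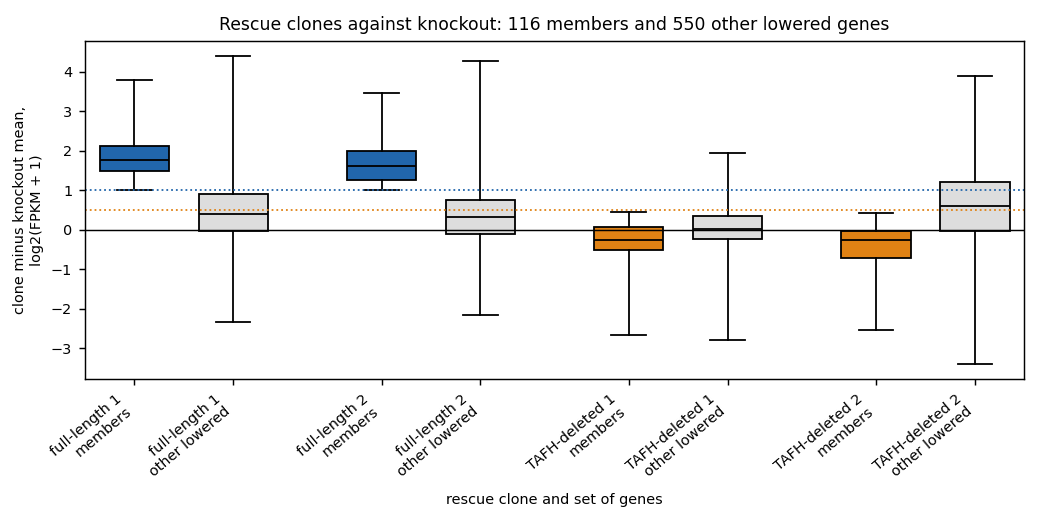
Boxes give the median and quartiles, and whiskers the lowest and highest values, of each rescue clone minus the knockout mean, on the log2(FPKM + 1) scale, for the 116 members (coloured) and the 550 other lowered genes (grey). Dotted lines at 1 and 0.5 mark the limits of the rule, which set the lower ends of the full-length boxes and the upper ends of the TAFH-deleted boxes. TAFH-deleted clone 2 has a median of -0.25 in members and 0.61 in the other lowered genes, a gap that the cap on this clone helps to make.

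The TAFH-deleted clones were at least 1 apart on the log2(FPKM + 1) scale in 10 members (8.62%, background 7.68%). Clone 2 was the lower in 1500015O10Rik, Rspo2, Mfap4, Aspn, Cxcr7, Rgs5 and Fam26e, and clone 1 in Klf2, Sim2 and Fam150a. Over all members clone 2 was below clone 1 in 58 (background 48.8%), so neither clone was regularly the lower. Among the other lowered genes the clones were as far apart in 35.6%, a share that the cap on both clones keeps low in the members. The full-length clones were that far apart in 1 member (background 0.324%), Rgs5, and clone 2 was below clone 1 in 82 of 116.

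Between the rescue forms directly, limma called 203 genes lower in the TAFH-deleted clones (percent called 1.69) and 112 higher (percent called 0.931). Of the 203, 70 were members, 60.3% of the members and 34.5% of the called genes. The rule used this contrast, so nothing is read from the overlap. The median member difference was -2.02 on the log2 scale and the median of all genes 0.06. The number of calls changed when a clone was left out, and the spread then came only from the pair of the other form. Over all tested genes the SD of the log2 difference within a pair was 0.203 for the full-length and 0.575 for the TAFH-deleted clones. Limma called no gene without full-length clone 1 (920 at an unadjusted p under 0.05) or without full-length clone 2 (1032), and called 2868 genes lower and 3854 higher without TAFH-deleted clone 1 and 1999 lower and 2805 higher without TAFH-deleted clone 2.

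Of the 133 genes called lower outside the set, 114 were not lowered by 1 on the log2(FPKM + 1) scale in knockout, and in 45 both TAFH-deleted clones lay at least 1 below it. Mmp2, a gelatinase that cleaves collagen IV, was at 46.4 and 46.6 FPKM in control, 49.3 and 48.4 in knockout, 69.9 and 71.04 in full-length clones 1 and 2, and 6.35 and 6.95 in TAFH-deleted clones 1 and 2 (difference between the forms -3.23 ± 0.09, SE, adjusted p = 0.0204 by limma). Nbl1, a secreted BMP antagonist, was at 59.4 and 59.5 FPKM in control, 62.2 and 61.03 in knockout, 71.2 and 71.9 in full-length clones 1 and 2, and 22.3 and 22.8 in TAFH-deleted clones 1 and 2 (-1.62 ± 0.07, adjusted p = 0.0254 by limma). In both, knockout did not lie below control, and full-length clone 1 was less than 1 above knockout. Rspo3, an R-spondin like the member Rspo2, was at 36.7 and 37.5 FPKM in control, 19.2 and 19.7 in knockout, 54.8 and 42.5 in full-length clones 1 and 2, and 2.33 and 0.534 in TAFH-deleted clones 1 and 2 (-4.45 ± 0.43, adjusted p = 0.0423 by limma) and was lowered in knockout by less than the limit.

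The lists of related genes place the members among their neighbours in function. Of all tested genes 1.69% were called lower in the TAFH-deleted clones and 0.931% higher, and 133 of the 203 called lower were outside the set. Of 26 tested collagens 5 fell in the TAFH-deleted against the full-length clones and none rose, with a list median of -0.52 on the log2 scale, and 4 were members. The called collagens outside the set were Col12a1 (-1.39 ± 0.14) and Col27a1 (-1.62 ± 0.17, SE), each with adjusted p = 0.0443 by limma. Of 26 proteoglycans 2 fell (list median -0.74, 3 members), and the called gene outside the set was Fmod, fibromodulin, which was at 50.4 and 49.8 FPKM in control, 0.941 and 1.09 in knockout, 30.2 and 26.2 in full-length clones 1 and 2, and 3.33 and 1.60 in TAFH-deleted clones 1 and 2 and missed the set through TAFH-deleted clone 1. Of 14 laminin and basement membrane genes 3 fell (list median -0.70, 1 member), among them Npnt, nephronectin, at 41.2 and 41.2 FPKM in control, 0.214 and 0.273 in knockout, 25.3 and 22.99 in full-length clones 1 and 2, and 0.425 and 1.92 in TAFH-deleted clones 1 and 2. Fmod and Npnt were lowered in knockout and raised by full-length TAF4 like the members, but a single TAFH-deleted clone exceeded the limit in each. Of the genes that fell, 2 collagens, 1 proteoglycan and 2 laminin and basement membrane genes were outside the set.

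Elastic fibre and matrix glycoprotein genes fell in 5 of 50 (list median -0.62, 3 members), and Svep1 and Efemp1 were among them. For matrix proteases and inhibitors the count was 3 of 43 (-0.37, 1 member), and for integrins and matrix receptors 3 of 19 (-0.19, 2 members), with Itga1, a collagen receptor chain, called outside the set. Wnt ligands, receptors and modulators fell in 5 of 40 (-0.61, 2 members), growth factors and receptors in 5 of 51 (-0.32, 4 members) and the TGF-beta and BMP pathway in 5 of 34 (-0.57, 2 members). In axon guidance and adhesion 2 of 43 fell (-0.12, 3 members), and in lipid and peptide receptors 2 of 26 fell and 1 rose (-0.26, 2 members). Genes that fell outside the set numbered 3 for elastic fibre and glycoprotein genes, 2 for proteases and 1 for integrins. They numbered 4 for the Wnt list, 2 for growth factors, 3 for TGF-beta and BMP, 1 for axon guidance and 2 for lipid and peptide receptors.

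No gene rose among the collagens, proteoglycans, laminins, glycoproteins, proteases, integrins, Wnt, growth factor and BMP lists. Of 34 mitosis and replication genes none fell, none was a member and 4 rose, Birc5, Ccna2, Bub1 and Kif11 (list median 0.72). In these 4 genes both full-length clones lay below every control and knockout library. Birc5 was at 58.2 and 56.98 FPKM in control, 45.4 and 43.9 in knockout, 23.5 and 23.5 in full-length clones 1 and 2, and 51.9 and 60.2 in TAFH-deleted clones 1 and 2. The median difference of full-length rescue and control was -0.84 over this list and -0.04 over all tested genes. No call was made among 17 Notch and Hedgehog genes, 17 smooth muscle genes and 11 mesenchymal basic helix-loop-helix genes, the last with Sim2 as a member. Cartilage and bone genes fell in 2 of 13, interferon and chemokine genes in 2 of 31, adipocyte genes in 1 of 9 (Fabp4) and neuronal genes in 1 of 9 (Tubb3). In each of these lists 1 gene that fell was outside the set. Medians of lists between the rescue forms stand beside 0.06 for all tested genes, and counts beside 1.69% called lower and 0.931% higher. The counts over whole lists include members, for which the contrast is not independent of the choice.

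Over the 6 samples, the genes outside the set with a course most like the mean of the members by Pearson's r were Pfkfb3 (0.999), Jam2 (0.996), Phf12 (0.995) and Dtx4 (0.992). Pfkfb3, a regulator of glycolysis, was at 10.1 and 9.58 FPKM in control, 5.78 and 5.70 in knockout, 10.1 and 9.90 in full-length clones 1 and 2, and 4.95 and 4.97 in TAFH-deleted clones 1 and 2, so its knockout fall was under the limit. Jam2, a junctional adhesion molecule, was at 1.60 and 1.77 FPKM in control, 0.395 and 0.337 in knockout, 1.76 and 1.82 in full-length clones 1 and 2, and 0.0912 and 0.147 in TAFH-deleted clones 1 and 2. Members themselves had r from 0.869 (Klf2) to 0.997 with a median of 0.970, which the rule favours, and all points share the same libraries.

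The members lay on every autosome, with 17 on chromosome 1 (2.58% of tested genes there) and 2 on chromosome 6 (0.348%). Within 500000 bases of another member there were 10, in 5 pairs. Prdm8 and Fgf5 were 66735 bases apart, Fam26e and Col10a1 193796 bases, Ptgfr and Nexn 399455 bases and Rtn2 and Apoe 400083 bases, and Ugt1a6b and Ugt1a7c have the same interval. The longest transcripts of members had a median of 3013 bases and those of all tested genes 2800 bases, and 24.1% of members and 23.3% of all genes had several transcripts.

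Because the series title names E proteins, the promoter windows of the members were searched for the E-box CANNTG. RefSeq windows of the GRCm38.p6 assembly, from 250 bases before to 50 after the start site, matched 76 of 116 members with 99 windows. Both strands were searched, and the motifs CAGCTG and CAGGTG (or CACCTG) are forms of CANNTG and are counted within it. The windows below belong to members with a wide gap between the forms, Ctsk and Hgf for any E-box and Apobec1 and Nrap for CAGCTG, and capitals mark each CANNTG.
Ctsk: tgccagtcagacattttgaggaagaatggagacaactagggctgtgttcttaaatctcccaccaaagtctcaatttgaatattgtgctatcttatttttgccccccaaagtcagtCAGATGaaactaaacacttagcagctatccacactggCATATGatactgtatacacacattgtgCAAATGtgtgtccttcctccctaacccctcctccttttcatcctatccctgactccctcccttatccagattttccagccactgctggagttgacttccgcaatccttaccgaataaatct
Hgf: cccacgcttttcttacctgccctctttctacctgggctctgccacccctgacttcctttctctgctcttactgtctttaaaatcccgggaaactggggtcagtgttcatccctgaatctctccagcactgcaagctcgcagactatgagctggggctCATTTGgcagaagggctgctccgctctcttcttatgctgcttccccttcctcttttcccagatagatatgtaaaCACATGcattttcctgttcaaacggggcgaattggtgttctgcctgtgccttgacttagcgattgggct
Apobec1: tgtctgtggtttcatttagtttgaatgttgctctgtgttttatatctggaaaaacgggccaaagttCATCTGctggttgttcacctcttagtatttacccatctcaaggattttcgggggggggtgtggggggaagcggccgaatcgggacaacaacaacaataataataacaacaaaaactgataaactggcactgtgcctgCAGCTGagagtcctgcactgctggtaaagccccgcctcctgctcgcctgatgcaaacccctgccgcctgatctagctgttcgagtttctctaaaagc
Nrap: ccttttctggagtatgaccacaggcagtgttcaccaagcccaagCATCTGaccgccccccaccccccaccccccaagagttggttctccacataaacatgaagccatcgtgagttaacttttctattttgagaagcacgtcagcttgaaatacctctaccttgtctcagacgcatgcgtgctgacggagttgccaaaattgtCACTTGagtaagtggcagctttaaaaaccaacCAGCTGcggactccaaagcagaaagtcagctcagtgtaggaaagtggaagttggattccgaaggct
The Ctsk window (chr3:95498960-95499259, plus strand) holds 3 E-boxes, starting at -135, -98 and -71 from the start site. The Hgf window shown (chr5:16553245-16553544, plus strand) holds CATTTG at -93 and CACATG at -19, and the Apobec1 window (chr6:122602395-122602694, minus strand) CATCTG at -184 and CAGCTG at -47. A further Hgf window (chr5:16553651-16553950) holds no CANNTG. The Nrap window (chr19:56389989-56390288, minus strand) holds CATCTG at -206, CACTTG at -48 and CAGCTG at -16. In contrast, the windows of Col8a2, Fgf5 and Rtn2, also among the widest gaps, hold no CANNTG.

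Any CANNTG occurred in 67.7% of members' windows, 67.8% of windows of the other lowered genes, 62.5% of windows of autosomal tested genes and 72.3% of all 32851 windows. E-boxes were thus about as common in the members as in promoters at large. CAGCTG occurred in 22.2%, 16.5%, 15.01% and 16.3% of windows in the same order, and CAGGTG in 17.2%, 19.2%, 17.04% and 20.2%. TATAAA, the TATA motif, occurred in 13.1%, 9.95%, 7.04% and 13.6%, and GGGCGG, the GC box, in 55.6%, 56.4%, 63.7% and 35.7%. The median GC content of the windows was 57.7% in members and 61.3% in autosomal tested genes. These shares are a description, and sites outside the windows were not searched.

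**Figure D5:**
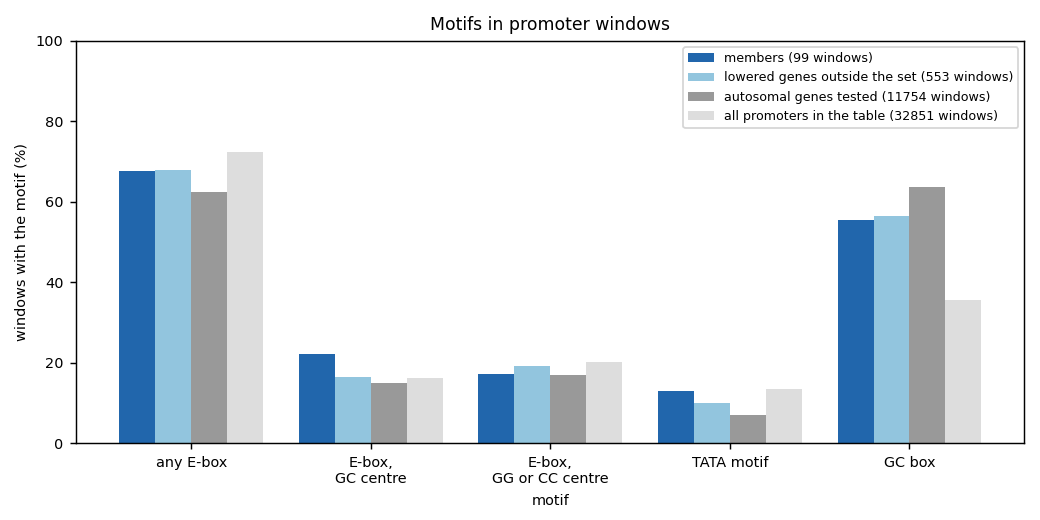
Bars give the percentage of promoter windows that hold each motif on either strand, for members (99 windows), other lowered genes, autosomal tested genes and all windows of the table. Bars of the members lie next to those of the other lowered genes for any E-box (67.7% and 67.8%) and above them for the E-box with a GC centre (22.2% and 16.5%).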

How the data were processed

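The authors deposited FPKM for 30028 RefSeq transcripts in each of 8 libraries. Per the submitters' processing notes, CASAVA 1.8, TopHat, Cufflinks and Cuffdiff were used on mm9; other versions and options are not given in the sources used here. Symbols came from a RefSeq table, which matched 96.2% of transcripts. FPKM were summed per gene and chromosome. Promoter windows carry GRCm38.p6 coordinates and loci mm9 coordinates, counted from 1, and were not converted.

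Genes needed at least 1 FPKM in 2 libraries and a transcript of at least 300 bases. limma 3.58.1 (R 4.3.3, trend, all groups in 1 fit, no covariates) was run on log2(FPKM + 1) over 6 samples, since the control and knockout pairs were each averaged. It had 2 residual degrees of freedom, and p-values were two-sided, adjusted by Benjamini-Hochberg over 12025 genes with a threshold of 0.05. The script was tested on simulated data. Implied totals came from FPKM steps after 204.4 bases were taken from each length, with 96.4% to 97.8% of low values whole within 0.05 fragments.

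Members and gene lists were chosen with earlier results of these data known. Leaving out Rik clones, predicted genes and small RNA genes, named genes were the 12 members with the widest gap, members on a list, the 3 highest and 3 lowest against control, the 3 furthest below knockout, those at the limits, called list genes, the 4 most alike, and the E protein, Id and Taf4a genes. Other members, and the role groups, were chosen after their values were seen. Replicate numbers do not pair the samples: same-numbered deviations correlated between -0.0776 and 0.0571. Alternatives were another pseudocount, filter, scaling, transcript choice, limits, groups in the fit, a replicate block, and leaving out each library.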

Additional observations from a re-analysis of the deposited data

Results flagged for a closer look

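In 69 of the 116 members the rescue forms lay on opposite sides of knockout in every clone, both full-length clones above the knockout mean and both TAFH-deleted clones below it. The full-length side was fixed by the rule and the TAFH-deleted side only capped by it. Both TAFH-deleted clones lay below the knockout mean in 59.5% of the members, 25.7% of all tested genes and 18.9% of the other lowered genes. Part of the excess in the members comes from the cap. The difference was not tested, because the members were chosen on the same contrasts.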

How the results depend on the processing

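The set held 116 members; it held 41 with falls and rises of at least 1.5, 184 with a pseudocount of 0.1, 74 with at least 5 FPKM in 2 libraries, 71 after quantile normalization (69 of them shared with the 116) and 114 to 160 without a single library. Leaving out TAFH-deleted clone 2 gave the 160. The median difference of full-length rescue and control was 0.29 after quantile normalization. Under settings chosen after seeing the data (single clones, pseudocount 0.1, quantile normalization), 48 to 87 members had the TAFH-deleted clones below knockout and 103 to 109 were less than 1 from control on the log2 scale.

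Counts of called genes depended on the fit. Between the rescue forms, genes lower and higher in the TAFH-deleted clones (203 and 112) numbered 106 and 36 with a pseudocount of 0.1, 60 and 20 with at least 5 FPKM, 0 and 0 with no filter (4341 at an unadjusted p under 0.05), 126 and 54 after quantile normalization, 1848 and 2718 with 8 libraries and no replicate block, 1631 and 2290 with the replicate block, 156 and 74 with only these groups, and 0 to 2868 and 0 to 3854 without a single library. They were 0 without either full-length clone. For full-length rescue against control (0 and 0), genes lower and higher numbered 244 and 14 with no filter, 1825 and 604 with 8 libraries and no replicate block, 1303 and 319 with the replicate block, 2092 and 766 with only these groups, and 0 to 2194 and 0 to 787 without a single library. For TAFH-deleted rescue against knockout (0 and 0) they numbered 577 and 497, 311 and 150 with the replicate block, and 0 to 1874 and 0 to 2137 without a single library. The cause was not tested. Among the E protein and Id genes, differences between the rescue forms changed sign in Tcf3 (0.016; -0.11 after quantile normalization, -0.034 to 0.065 without a single library), Tcf4 (0.029; -0.062 after quantile normalization, -0.022 to 0.080 without a single library), Id2 (0.23; -0.052 to 0.52 without a single library) and Id4 (0.17; -0.11 with a pseudocount of 0.1, -1.04 to 1.39 without a single library). The lowest value came without TAFH-deleted clone 1 for Tcf3 and Tcf4 and without TAFH-deleted clone 2 for Id2 and Id4.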
